A study of Mus musculus with 2 samples.

Results

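miR-31 is a microRNA (miRNA) made from a single mouse gene, Mir31, whose hairpin gives a miRNA from each arm. The members described here are mmu-miR-31-5p and mmu-miR-31-3p, found by name in the first column of each deposited count table. They are 2 of the 1477 mature miRNA names listed in at least 1 of the 2 libraries. They were chosen by their counts, with earlier results in view: miR-31-5p had the most counts of any name. Its level and rank are therefore descriptions and carry no test.

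The series holds 1 group of 2 replicate libraries and no control, input or untreated group was analysed here. Cultured keratinocytes from mouse skin, grown in low-calcium medium, expressed exogenous Dsp-BirA and were treated with biotin. Dsp is desmoplakin, which ties desmosomes to keratin filaments, and BirA is an enzyme that attaches biotin to proteins, here fused to Dsp. Both libraries share this genotype and treatment. The labels do not say which promoter drove the fusion, how many cells carried it, or whether the replicates came from separate cultures. Proteins carrying biotin were captured on streptavidin together with the RNA bound to them, RNA ends were ligated by the CLEAR-CLIP method, and miRNA reads were counted. The labels do not say whether the counts come from all miRNA reads or only from reads joining a miRNA to an mRNA (chimeras). Levels and arm shares below are those of the counts as given. The study's question was what Argonaute proteins do at the desmosomal plaque. With no second group, the values say how much of each arm was recovered and not whether either arm was enriched at the desmosome.

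A miRNA hairpin is cut by Drosha and Dicer into a duplex of its arms. An Argonaute protein then usually keeps 1 arm as the guide, which finds target mRNAs through its seed, bases 2 to 8, while the other arm is mostly lost. A base U or A at the 5′ end and weak pairing of that end are known to favour loading of an arm. In skin, miR-31 is known as a miRNA of growing and injured epidermis: it is induced in wounded and psoriatic keratinocytes, and reported targets of miR-31-5p include Ppp6c, a phosphatase subunit that restrains the cell cycle, Stk40, a brake on NF-kappaB signalling, and Hif1an, which hydroxylates HIF and Notch proteins.

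The mature arms are printed with the seed in capitals, because the arms carry different seeds and would pair with different targets. Sequences are from RefSeq, build GRCm38.p6, written 5′ to 3′.
miR-31-5p: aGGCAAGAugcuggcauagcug
miR-31-3p: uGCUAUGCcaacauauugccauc
The target-side match to the seed is UCUUGCC for miR-31-5p and GCAUAGC for miR-31-3p. miR-31-5p is 22 bases long with 54.5% G or C, and miR-31-3p is 23 bases long with 43.5%. miR-31-5p lies at chr4:88910614-88910635 and miR-31-3p at chr4:88910577-88910599, both on the minus strand. mm10, the build named in the submitters' processing notes, is the same assembly as GRCm38.

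The hairpin that holds them is printed with both mature arms in capitals, to show how they face each other across the loop.
Mir31 hairpin: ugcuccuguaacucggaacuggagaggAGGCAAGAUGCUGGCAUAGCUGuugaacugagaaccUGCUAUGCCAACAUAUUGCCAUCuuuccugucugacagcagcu
The hairpin covers 106 bases, chr4:88910557-88910662 on the minus strand. The arms occupy bases 28 to 49 and 64 to 86, with 14 bases between them. In the minimum free energy structure predicted by RNAfold (-48.7 kcal/mol), 17 base pairs joined the arms, 9 of them G-C and 8 A-U. Of the 7 seed bases, 6 of miR-31-5p and 7 of miR-31-3p were paired with the opposite arm. Among the first 4 bases of each arm, 3 were paired at either 5′ end. All 3 of those pairs were G-C for miR-31-5p and 2 were for miR-31-3p. The prediction is a description of the sequence and was not measured in these cells.

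**Figure D1:**
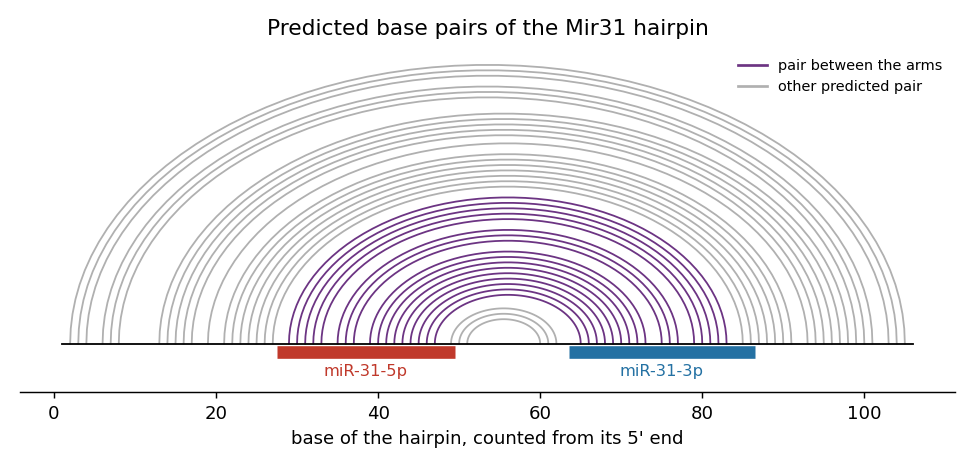
Predicted base pairs of the Mir31 hairpin: the x axis is the base of the hairpin counted from its 5′ end, each arc joins a predicted pair, and the bars mark the mature arms. The 17 arcs between the arms show miR-31-5p and miR-31-3p facing each other over most of their length.

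Mir31 lay inside the span of the long noncoding RNA gene Gm49890 (chr4:88909854-88942042), which is on the same strand; whether Mir31 is in an exon or an intron of it is not given in the gene table used. The nearest protein-coding gene was Ifne, an epithelial type I interferon gene, 30356 bases away. Within 200 kb on either side there were 31 genes, Mir31 included, 8 of them interferon genes by symbol (Ifn). None of the others was a miRNA gene, so no miRNA within that distance shared a cluster with miR-31.

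No other mature miRNA in the RefSeq table of 1679 names carried the seed of either arm, nor bases 2 to 7 of it. miR-31 is therefore alone in its seed group on both arms in that table. The seed letters of miR-31-5p occurred elsewhere in 2 names, of which miR-193a-5p was counted here. The seed letters of miR-31-3p occurred in 1 other name, miR-3088-5p. Both are printed with the shared letters in capitals, to show where these lie.
miR-193a-5p: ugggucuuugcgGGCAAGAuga
miR-3088-5p: GCUAUGCaguuguucaugagcu
In miR-193a-5p the letters sat at bases 13 to 19, outside the seed, and it had 52 counts in replicate 1 and 41 in replicate 2. In miR-3088-5p they sat at bases 1 to 7, shifted by 1 base from its own seed, and it had 5 counts in replicate 1 and 0 in replicate 2. The name nearest in sequence to miR-31-5p was miR-449c-5p, at an edit distance of 6 (substitutions, insertions and deletions), with 0 counts in both libraries. For miR-31-3p the nearest was miR-3963, at a distance of 8, also with 0 counts. Among the names with a sequence in the table, none was near-identical to either arm. The table held 1231 of the 1477 counted names (83.3%).

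Replicate 1 held 3776893 miRNA counts and replicate 2 held 4122955. CPM stands for counts per 1000000 miRNA counts. The epithelial miRNAs used to check the cell type (miR-205-5p, miR-203-3p and the miR-200 family, 7 names) were all found in both libraries and summed to 105854 and 106177 CPM. The blood, muscle, neural, liver and mesenchymal lists each summed to between 4.50 and 113.9 CPM in either library, so the marker levels go with the labelled epithelial cell type. The treatment of PCR copies is not given in the sources used here. Intervals and tests on single libraries take each count as independent, so they cover counting error at most. More cells with a miRNA cannot be told apart from more of it per cell.

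mmu-miR-31-5p had 546558 counts in replicate 1 and 575281 in replicate 2. Its share of all miRNA counts was 14.5% (14.4% to 14.5%, Wilson 95% interval) and 14.0% (13.9% to 14.0%), respectively. The level was 144711 CPM and 139531 CPM, with a mean of 142121 ± 3663 CPM (SD, n = 2). It stood at rank 1 in both libraries, 19520 and 17978 times the median CPM of the listed names.

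mmu-miR-31-3p had 54537 counts in replicate 1 and 58141 in replicate 2. They made up 1.44% of the counts (Wilson 95% interval 1.43% to 1.46%) and 1.41% (1.40% to 1.42%). Its level was 14440 CPM and 14102 CPM, with a mean of 14271 ± 239 CPM (SD, n = 2). The arm usually regarded as the passenger was at rank 15 in replicate 1 and rank 14 in replicate 2, with 1216 of 1231 and 1218 of 1232 listed names below it. Both arms together took 15.9% and 15.4% of the counts. The SD between libraries was 2.58% of the mean for miR-31-5p and 1.67% for miR-31-3p.

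**Figure D2:**
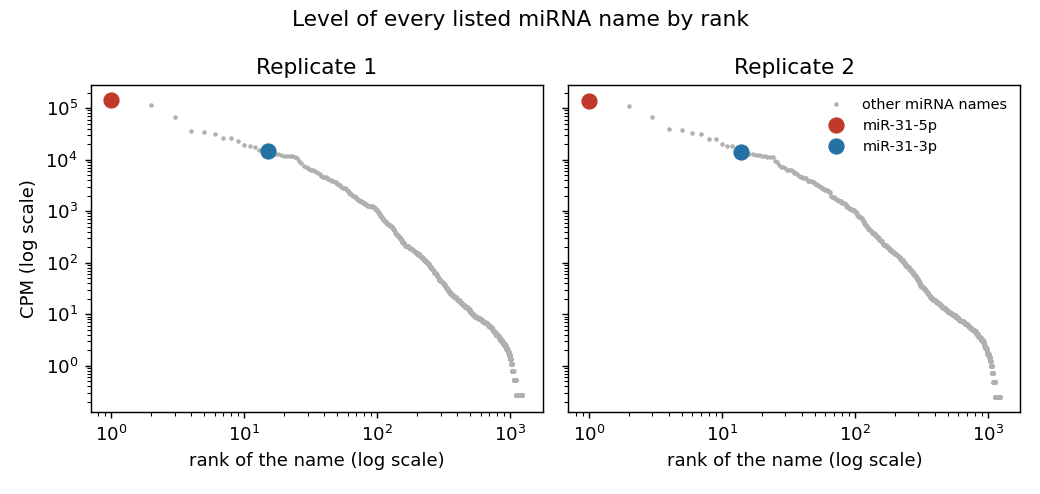
CPM of every listed miRNA name (y, log scale) against its rank (x, log scale) in replicate 1 and replicate 2; each point is 1 name. miR-31-5p is at rank 1 in both panels and miR-31-3p at rank 15 and rank 14.

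The 3 names next below miR-31-5p are printed to show that the top of the profile is made of unrelated seeds.
miR-16-5p: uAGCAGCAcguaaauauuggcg
miR-27a-3p: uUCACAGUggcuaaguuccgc
miR-141-3p: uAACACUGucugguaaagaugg
miR-31-5p had 1.29 and 1.26 times the CPM of miR-16-5p, which restrains the cell cycle, in replicates 1 and 2. It had 2.17 and 2.08 times that of miR-27a-3p, and 3.99 and 3.63 times that of miR-141-3p, a miR-200 family member that maintains the epithelial state. In each case the excess over 1 was larger than the SD of the ratio between the libraries. All 3 of these names begin with U, whereas miR-31-5p begins with A.

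Around miR-31-3p the levels were closer. The names next above it were miR-125a-5p (18750 ± 892 CPM), miR-182-5p (18391 ± 176 CPM) and let-7c-5p (16680 ± 1345 CPM, SD, n = 2), all guide arms. miR-31-3p had 0.762 ± 0.0235, 0.776 ± 0.00558 and 0.858 ± 0.0549 times their CPM, and was below each of them in both libraries. Next below came miR-2137, whose level was 15479 CPM in replicate 1 but 12650 CPM in replicate 2. Replicate 1 placed miR-2137 above miR-31-3p and replicate 2 below it, a ratio of 1.02 ± 0.129, so these neighbours did not differ beyond their spread. miR-484 and miR-29a-3p followed: miR-31-3p had 1.07 ± 0.0402 and 1.10 ± 0.00671 times their CPM (SD, n = 2) and was above them in both libraries. miR-29a-3p is known for targeting collagen and other matrix mRNAs.

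Within the miR-31 hairpin the arms kept nearly the same proportion in both libraries. miR-31-5p held 90.9% of the hairpin's counts in replicate 1, with a Wilson 95% interval of 90.9% to 91.0%, against 90.8% in replicate 2, with one of 90.7% to 90.9%. miR-31-3p held the remaining 9.07% and 9.18%. There were 10.02 counts of miR-31-5p per count of miR-31-3p in replicate 1 and 9.89 in replicate 2, a mean of 9.96 ± 0.0899 (SD, n = 2).

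This share was set beside that of other hairpins. For 164 hairpins both arms were named under the same base name and the arms together had at least 100 counts in each library. The arm with fewer counts is called the lesser arm. Across the 164 hairpins the median lesser arm share was 5.44% (quartiles 0.849% and 19.8%). That of miR-31, 9.13% ± 0.0749 (SD, n = 2), was at rank 69, with 68 hairpins above and 95 below it. Over all hairpins its arm balance was thus inside the quartiles. Its nearest neighbours in lesser arm share were let-7d (9.29%), miR-1894 (9.28%) and miR-467c (10.1%) above and miR-669o (8.68%), miR-28a (8.56%) and miR-450b (8.55%) below. These are means of the libraries, and some neighbours differed between them: miR-1894 had 15.9% in replicate 1 and 2.64% in replicate 2, miR-467c 12.3% and 7.93%, and miR-450b 10.4% and 6.67%. The summed arms of these 6 neighbours had between 52.5 and 2081 CPM, against 156392 CPM for miR-31.

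Among abundant hairpins the lesser arm share of miR-31 was at the high end. The median lesser arm share was 15.5% in the 65 hairpins with fewer than 1000 counts in their shallower library, 5.15% in the 60 hairpins from 1000 to 10000, and 0.569% in the 39 with at least 10000. Of these 39 deepest hairpins, only miR-93 (22.3%), miR-106b (13.4%) and miR-17 (12.01%) had a larger lesser arm share than miR-31. All 3 belong to the related miR-17-92 and miR-106b-25 clusters, known to promote proliferation. Of the 164 hairpins, 13 had a greater arm of at least 10000 CPM. The 12 others had lesser arm shares from 0.0140% (miR-23a) to 1.11% (miR-183), with a median of 0.121%. The share of miR-31 was 8.25 times the highest of these 12. Some abundant names, such as miR-16-5p (111712 CPM) and miR-24-3p (12207 CPM), are outside the 164, because their arms do not share a base name. Beside miR-24-3p, miR-24-1-5p had 111 CPM and miR-24-2-5p 305 CPM (means of the libraries). In miR-27a, the hairpin with the next most counts among the 164, the lesser arm miR-27a-5p had 138 counts in replicate 1 and 76 in replicate 2, or 0.0548% and 0.0275%. In miR-205 it was miR-205-3p, with 38 and 81 counts. These are descriptions: miR-31 was chosen for its counts, and no test is attached to its place.

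**Figure D3:**
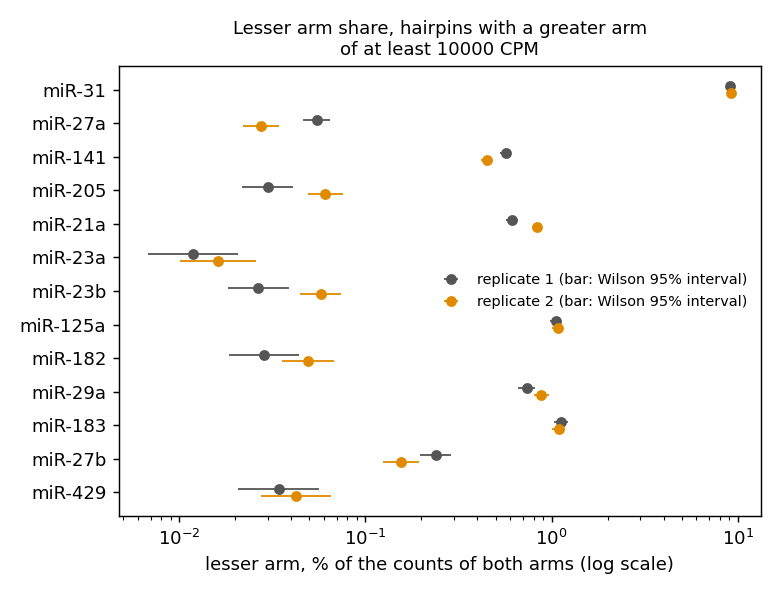
Lesser arm share, as a percent of both arms' counts (x, log scale), in the 13 of the 164 hairpins whose greater arm had at least 10000 CPM. Hairpins are ordered by the greater arm's level. Points are the 2 libraries and bars their Wilson 95% intervals. miR-31 sits at 9.07% and 9.18%, while the mean share of each of the 12 others is at most 1.11%.

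In level, miR-31-3p was the most abundant of all 164 lesser arms in both libraries. The arm with the next highest level was miR-93-3p, whose level was 1092 CPM in replicate 1 and 1054 CPM in replicate 2. miR-31-3p had 13.2 and 13.4 times its CPM. The lesser arms together summed to 28571 CPM and 27801 CPM in replicates 1 and 2. miR-31-3p alone made up 50.5% and 50.7% of these sums. It also exceeded the greater arm of 155 of the 164 hairpins (94.5%). The median lesser arm had 22.8 CPM. miR-16, miR-24, miR-125b and other hairpins whose arms do not share a base name are outside these 164.

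**Figure D4:**
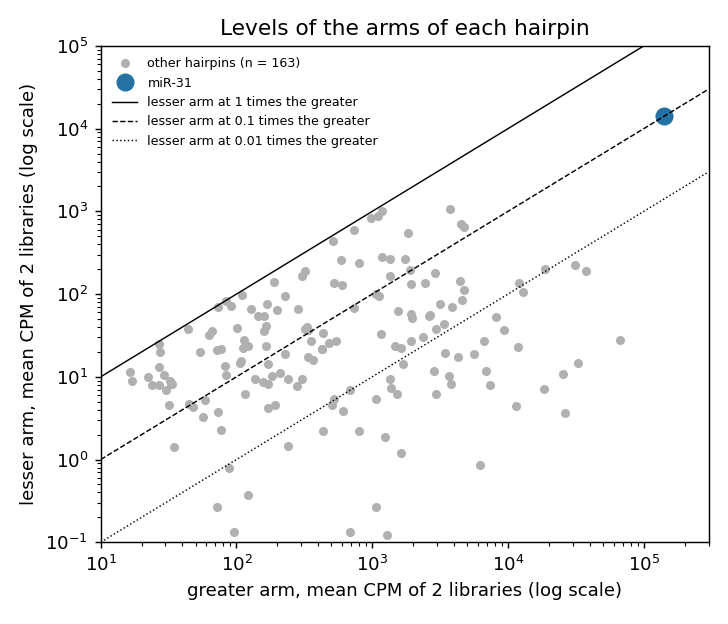
Mean CPM of the lesser arm (y, log scale) against the greater arm (x, log scale) for the 164 hairpins; each point is 1 hairpin and the lines mark fixed ratios of the arms. miR-31 lies near the line at 0.1, with a lesser arm at 14271 CPM, above every other lesser arm.

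The lesser arms that followed are printed for the hairpins that exceeded miR-31 in lesser arm share among the deepest 39, for comparison with miR-31-3p.
miR-93-3p: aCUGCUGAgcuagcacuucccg
miR-106b-3p: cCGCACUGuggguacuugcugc
miR-17-3p: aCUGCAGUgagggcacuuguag
None of these seeds matches GCUAUGC. miR-93-3p had 1073 ± 26.6 CPM, miR-106b-3p 696 ± 50.8 CPM and miR-17-3p 644 ± 66.2 CPM (SD, n = 2). The other 6 of the 10 most abundant lesser arms came from miR-467d, miR-297a, miR-140, miR-466c, miR-99b and miR-151. Their levels ranged from 435 CPM (miR-151) to 998 CPM (miR-467d), and in all but miR-99b (23.1%) the lesser arm held from 44.1% to 46.0% of the counts. miR-31-3p was thus the only lesser arm among the 10 with a share under 10% of its hairpin.

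The sequence of the miR-31 arms differed from the more common pattern. Where the RefSeq table pairs both arms under 1 gene, and they had at least 100 counts in each library, 149 hairpins could be read. In these the greater arm began with U in 92 (61.7%) and with A in 27 (18.1%), and the lesser arm began with U in 17 (11.4%) and with A in 50 (33.6%). miR-31 had A on the greater arm and U on the lesser arm, a combination found in 7 of the 149 hairpins (4.70%). The other 6 were miR-1191b, miR-193a, miR-423, miR-671, miR-7217 and miR-872. The greater arm of miR-31 was also richer in G and C than the lesser, by 11.1 percentage points. The median difference over the 149 hairpins was -4.35 points, and 5 hairpins, miR-31 included, had a difference as large as that of miR-31 in this direction. Whether these features bear on the arm shares was not tested.

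Hairpins described in keratinocytes gave a further comparison. The list was miR-21a, miR-203, miR-205, miR-200a, miR-200b, miR-200c, miR-141, miR-429, miR-125b, miR-34a, miR-24 and miR-184. miR-31-5p was above the most abundant arm of all 12. It had 4.31 ± 0.00851 times the CPM of miR-205-5p, a miRNA of basal keratinocytes, and 4.54 ± 0.0802 times that of miR-21a-5p, which is induced in wounds and tumours. It had 32.2 ± 1.52 times the CPM of miR-203-3p, which promotes exit from the cell cycle in differentiating keratinocytes, and 123.0 ± 3.33 times that of the p53 target miR-34a-5p (SD, n = 2). miR-31-3p itself was exceeded by the most abundant arm of 3 of the 12 hairpins (miR-141, miR-205 and miR-21a) and lay above that of 9. The least abundant of the 12 by its greater arm was miR-184, whose miR-184-5p had 53 counts in replicate 1 and 29 in replicate 2, and whose miR-184-3p had 1 and 2. Of the 12, 9 hairpins were among the 164, and all 9 had a lesser arm share below that of miR-31, from 0.0383% (miR-429) to 3.20% (miR-203). Their median was 0.414%, against 5.44% over the 164. Of these 9, 8 were among the 39 hairpins with at least 10000 counts in each library. The median of these 8 was 0.405%, against 0.569% over the 39. miR-125b, miR-24 and miR-184 are outside the 164, and miR-125b goes the other way. miR-125b-2-3p had 780 counts in replicate 1 and 865 in replicate 2, beside 6924 and 6786 of miR-125b-5p. That is more lesser arm counts per greater arm count than in miR-31, in both libraries. miR-31 was therefore not the highest of the whole list in this respect.

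The libraries were compared with each other, which tests reads of 2 libraries and not a condition. Of 1002 names averaging 10 counts or more, 70.6% differed at an adjusted p-value under 0.05 in the exact binomial test. Both arms of miR-31 were among them, and both were lower in replicate 2. Names that passed and were lower in replicate 2 were 344 of the 1002 (34.3%), against 707 that passed in either direction. For miR-31-5p the log2 of replicate 2 over replicate 1 was -0.053 (exact 95% interval -0.058 to -0.047, exact binomial adjusted p = 5.08e-81). For miR-31-3p it was -0.034 (-0.051 to -0.017, exact binomial adjusted p = 1.46e-04). These low p-values come with small differences: replicate 1 was 3.71% higher for miR-31-5p and 2.40% higher for miR-31-3p. With size factors of DESeq2 in place of totals, the ratio of miR-31-3p was -0.016 and the exact binomial test no longer passed (adjusted p = 0.0897).

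Against names of like abundance the difference was typical for miR-31-5p and below the median for miR-31-3p. Among the 59 names averaging 10000 counts or more, of which 81.4% passed the same test, the SD of the log2 ratio was 0.22 and the median absolute ratio 0.053. miR-31-5p had the median absolute ratio of this class, and 17 of the 59 names had a smaller one than miR-31-3p. Both arms thus lay well inside the spread between these libraries.

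**Figure D5:**
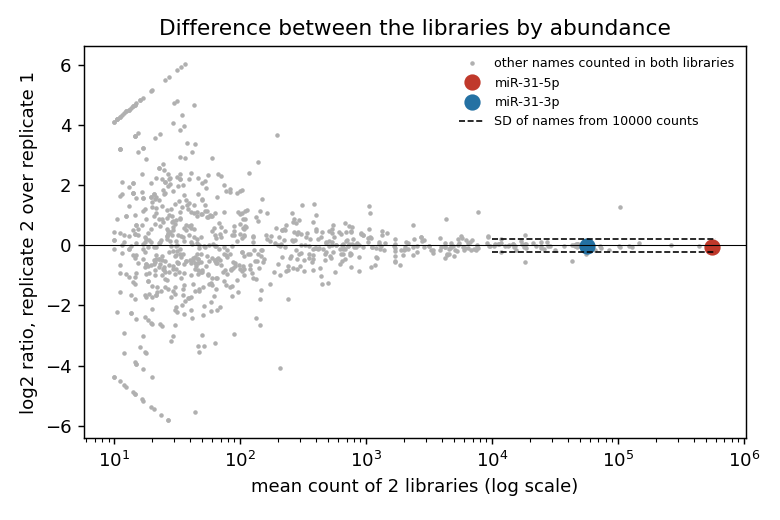
log2 ratio of replicate 2 over replicate 1 (y) against the mean count (x, log scale) for the 853 names averaging 10 counts or more that were counted in both libraries; each point is 1 name and dashed lines mark 1 SD, 0.22, of names with at least 10000 counts. Both arms of miR-31 lie close to 0, inside the dashed lines.

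The arm proportion was compared in the same way, which needs no scaling. Replicate 2 minus replicate 1, the miR-31-5p share differed by -0.106 percentage points (95% interval -0.208 to -0.0043). In Fisher's exact test on the counts of both arms the two-sided p was 0.0412, and 0.0593 after Benjamini-Hochberg adjustment over the 164 hairpins. Of these hairpins, 68.3% passed an adjusted p-value of 0.05, and miR-31, which has the most counts of them, did not. Among the 39 hairpins with at least 10000 counts in each library, 25 passed and 13 had a smaller absolute difference than miR-31. A difference in percentage points is limited by the size of the lesser arm share, so this place does not rank how stable the arms were. One of the 13 was miR-27a, whose lesser arm share was 0.0548% in replicate 1 and 0.0275% in replicate 2. A difference of the size seen in miR-203, where the lesser arm held 4.18% in replicate 1 and 2.23% in replicate 2, lies outside the interval for miR-31. That interval covers counting error only, so the stability of these hairpins is not compared by it.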

How the data were processed

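The members and lists were chosen with earlier results of these data known. The authors deposited 1 table of whole-number counts per library, by mature miRNA name. Per the submitters' processing notes the build was mm10 and the tools included cutadapt and Novoalign. The miRNA reference, the treatment of PCR copies, multiple matches and chimeras are not given in the sources used here. Names missing from a table were set to 0. Rows without a miRNA name (0.00265% and 0.000218% of counts) stayed out. The limit for a name at 0 is 3 counts (0.794 and 0.728 CPM).

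CPM, ranks and arm shares were computed per library. Differences between libraries used exact two-sided binomial tests on names averaging 10 counts or more. Arm shares were compared by Fisher's exact test on hairpins with at least 100 counts in each library. Both had Benjamini-Hochberg adjustment. Both were also run on simulated counts with counting error only, the noise that these tests assume. That check does not cover other variation between libraries. The interval of the difference in arm share is a normal approximation. The named miRNAs were both arms, the nearest names in level, sequence, summed arm counts and lesser arm share, the 10 most abundant lesser arms, a keratinocyte list and cell type markers; miR-93, miR-106b and miR-17, the 6 other hairpins with A and U at the arms' first bases, and the examples with extreme values were otherwise chosen after their values were seen. Alternatives changed totals, minimums, pseudocount, pairing and scaling (edgeR 4.0.16, DESeq2 1.42.0, R 4.3.3). Structure was predicted with RNAfold 2.7.2. Python 3.11.15, numpy 2.4.6, pandas 2.3.3, scipy 1.17.1 and matplotlib 3.10.9 were used.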

Additional observations from a re-analysis of the deposited data

How the results depend on the processing

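The rank of miR-31-3p among lesser arms was 1 under every setting run, and neither log2 ratio changed sign. When the counts of miR-31-5p were taken out of the total, its level became 165676 CPM and that of miR-31-3p 16636 CPM. Taking out names numbered from 2000 upwards gave 156903 and 15756 CPM. Both follow from the smaller total. The rank of miR-31-3p among all names was 12 without those names and 18 with names summed over shared seeds. Its share of the summed lesser arms was 49.8% with at least 20 counts per hairpin, 53.2% with at least 1000 and 59.5% with arms paired through RefSeq, settings chosen after seeing the data. With DESeq2 size factors the log2 ratio of miR-31-3p was -0.016 and no longer passed. The number of names differing was 254 of 358 among those averaging 100 counts or more, 903 of 1477 with no minimum and 441 of 1002 with a 2-fold ratio also required, against 707 of 1002. The number of hairpins differing in arm share was 196 of 309 at 20 counts and 61 of 99 at 1000, against 112 of 164.

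Leaving out each library gave 139531 to 144711 CPM for miR-31-5p, 14102 to 14440 CPM for miR-31-3p, 90.8% to 90.9% for the miR-31-5p share of its hairpin, ranks of 14 to 15 and 50.5% to 50.7% of the summed lesser arms. With 2 libraries this is the value of the other library. No paired analysis was possible because both libraries belong to the same group.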
